A study of Arabidopsis thaliana with 6 samples.

Results

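The 10 genes described here act in the formation of phloem in the Arabidopsis thaliana root. They are PEAR1, BAM3, BRX, OPS and CVP2, which act early in the protophloem lineage, APL, NAC45, NAC86 and NEN4, which act late, as sieve elements differentiate, and SUC2, the sucrose carrier of companion cells. They were chosen by gene ID, with no measured value in the rule, though with earlier results of these data known. All 10 were among the 21125 genes with values. RNA was measured in root tips of scl28-3 plants (3 libraries) and of wild-type plants (3 libraries). scl28-3 is a mutant of SCL28, which encodes a transcription factor of the GRAS family, and the comparison asks how gene expression in the tip differs in this mutant. Per the labels, plants of both genotypes were 6 days old and grew in continuous light at 21 °C on sucrose medium, and each library was made from about 300 pooled tips of about 2 mm. Ecotype, the molecular nature of the allele and any further background of the lines are not given in the sources used here.

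Phloem carries sugars and signals through files of sieve elements, which lose their nuclei as they mature and are served by neighbouring companion cells. In the root meristem the protophloem is the first vascular file to differentiate. Dof factors such as PEAR1 mark its youngest cells and promote divisions there. The receptor kinase BAM3, with its peptide ligand CLE45, holds differentiation back, while OPS, BRX and the phosphoinositide phosphatase CVP2 favour it. APL then drives sieve element identity and activates NAC45 and NAC86, and these act through NEN4 and related nucleases in the breakdown of the nucleus. SUC2 is expressed in companion cells and loads sucrose into the phloem.

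The labels were checked first on the mutated gene. SCL28 (AT1G63100) was at 17.72, 14.92 and 13.65 CPM (counts per 1000000 reads) in scl28-3 and at 44.5, 42.59 and 42.38 CPM in wild type, and the genotypes did not overlap. SCL28 RNA was thus lower in scl28-3 but not absent, at a fold of 0.358 in the limma fit. Recovered depth was 13996534 to 16780424 reads per scl28-3 library and 10399899 to 11572901 reads per wild-type library, so low genes rest on more reads in the mutant. The tips held differentiating tissue as well as meristem. The 4 dividing-cell genes summed to 172 to 193 CPM in scl28-3 and 159 to 196 CPM in wild type, and the 9 endodermis genes to 325 to 480 CPM and 172 to 401 CPM. Wild-type library 1 stood apart on the first principal component, at -35.6 against -9.5 to 19.5 for the other 5 libraries, and had the lowest endodermis sum. In root tips of mixed cells, fewer cells of a type and less RNA per cell cannot be told apart.

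No phloem gene was called changed in scl28-3. Each of the 10 had overlapping CPM ranges in the 2 genotypes. BAM3 had the narrowest 95% interval of its fold, 0.879 to 1.25, and SUC2 and NEN4 the widest on the log2 scale. APL had the largest difference, a higher mean in scl28-3 that did not pass the test. Of 17879 genes tested with limma (Benjamini-Hochberg adjusted p under 0.05), 13 were called, which is 0.0727%, all of them lower in scl28-3. Of the 10 phloem genes, limma and edgeR's quasi-likelihood test each called 0, and 0 had an unadjusted p under 0.05 in either test, where 4.41% of all tested genes had one with limma. The genotypes did not overlap for 0 of the 10 genes, against 10.4% of all tested genes. Of the 10, 7 had a higher mean on the log2 scale in scl28-3 and 3 a lower one, beside 9288 higher and 8591 lower over all tested genes. The median log2 fold change of the 10 was 0.03, ranging between -0.20 and 0.42, and that of all tested genes was 0.01. With 3 libraries in each genotype, and no label that says how separately the plants were grown, p-values set differences against the spread between these pooled samples.

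**Figure D1:**
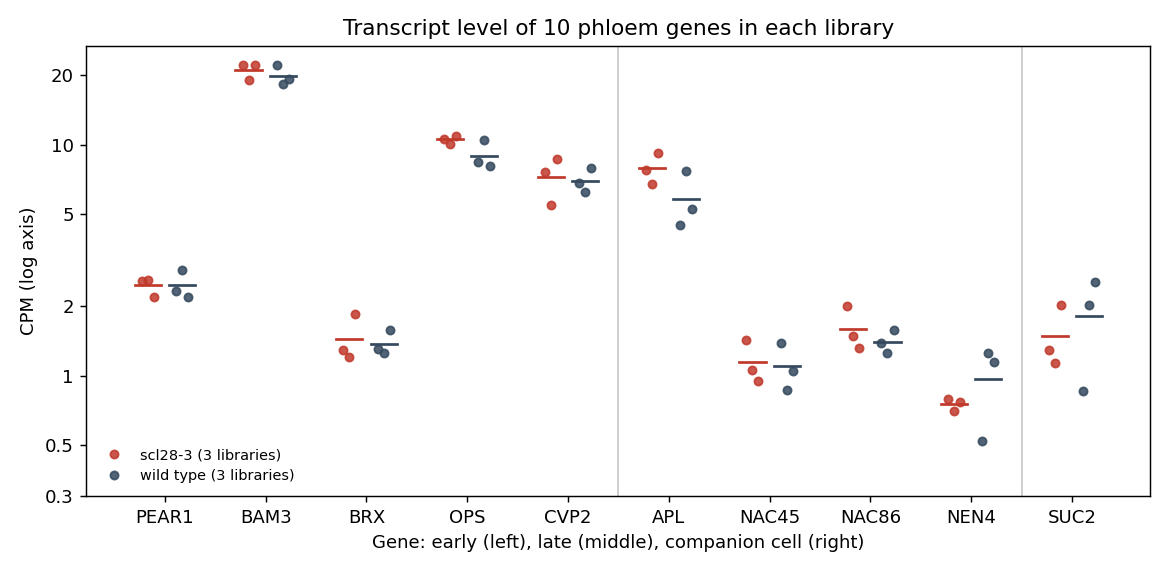
Deposited CPM (log axis) of each phloem gene in the 3 scl28-3 libraries (red, left) and the 3 wild-type libraries (dark blue, right). Points are libraries and bars are means. The ranges of the genotypes overlap for every gene, and the spread is widest for NEN4 and SUC2 in wild type.

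The stretches upstream of 4 of these genes are shown because they belong to the genes with the highest levels per kb of exon, BAM3 and APL, and to the paralogous pair NAC45 and NAC86, whose levels are set side by side further on. Each is the 250 bases before the annotated gene start in the RefSeq annotation of TAIR10.1, read 5′ to 3′ on the gene's strand. They lie at chr4:10949323-10949572 (plus strand, BAM3), chr1:29879280-29879529 (minus strand, APL), chr3:738630-738879 (minus strand, NAC45) and chr5:5678176-5678425 (minus strand, NAC86). No annotated exon lies in these 4 windows. Capitals mark AAAG on either strand (CTTT as printed), the core that Dof proteins such as PEAR1 recognise.
BAM3: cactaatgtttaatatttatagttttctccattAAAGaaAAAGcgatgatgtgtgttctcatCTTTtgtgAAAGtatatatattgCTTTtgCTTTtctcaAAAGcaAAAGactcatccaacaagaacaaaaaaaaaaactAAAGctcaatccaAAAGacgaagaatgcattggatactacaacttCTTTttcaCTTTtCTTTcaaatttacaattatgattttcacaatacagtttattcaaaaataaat
APL: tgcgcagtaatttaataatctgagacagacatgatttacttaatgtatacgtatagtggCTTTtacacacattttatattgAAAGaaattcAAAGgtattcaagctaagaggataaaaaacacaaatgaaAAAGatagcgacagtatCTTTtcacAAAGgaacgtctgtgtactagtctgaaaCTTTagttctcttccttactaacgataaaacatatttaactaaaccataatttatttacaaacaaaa
NAC45: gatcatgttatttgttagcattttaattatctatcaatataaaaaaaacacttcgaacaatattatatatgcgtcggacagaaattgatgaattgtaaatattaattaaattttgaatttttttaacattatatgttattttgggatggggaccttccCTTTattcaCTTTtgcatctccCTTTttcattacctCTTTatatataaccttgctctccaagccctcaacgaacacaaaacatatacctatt
NAC86: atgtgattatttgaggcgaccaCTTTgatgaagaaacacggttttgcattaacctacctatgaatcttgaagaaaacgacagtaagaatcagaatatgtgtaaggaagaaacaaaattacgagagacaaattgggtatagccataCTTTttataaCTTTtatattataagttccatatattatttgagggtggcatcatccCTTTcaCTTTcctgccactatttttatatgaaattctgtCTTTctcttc
AAAG occurred 13 times upstream of BAM3, 7 times upstream of APL, 6 times upstream of NAC86 and 4 times upstream of NAC45. Over all 10 phloem genes the count ran from 2, upstream of PEAR1, to 13. The core is common, since 97.9% of 21019 windows of the same length hold it, with a median of 4 matches. The core AACGG (either strand), part of the element bound by MYB3R factors of dividing cells, had 1 match each upstream of BRX and OPS and none in the other 8 windows, and 22% of all windows hold it. Neither motif contains the other, and a match describes the letters of the window only.

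Among the early genes, PEAR1 and BAM3 act at the start of the lineage. PEAR1 (AT2G37590, chromosome 2, 15769086 to 15770805, plus strand), a mobile Dof factor, was at 2.57, 2.6 and 2.2 CPM in scl28-3 and at 2.33, 2.88 and 2.19 CPM in wild type. The wild-type libraries held both the highest and the lowest value. Its log2 fold change was -0.02 ± 0.18 (SE), with a 95% interval of the fold between 0.745 and 1.31. BAM3 (AT4G20270, chromosome 4, 10949573 to 10953113, plus strand), the receptor kinase, was at 22.22, 19.07 and 22.17 CPM in scl28-3 and at 22.12, 18.36 and 19.3 CPM in wild type. It was the most abundant of the 10 genes, with 271 to 372 reads per scl28-3 library and 191 to 256 per wild-type library. It averaged 21.2 ± 1.8 CPM in scl28-3 and 19.9 ± 1.96 CPM in wild type (SD, n = 3 each). Its log2 fold change was 0.07 ± 0.11 (SE; limma adjusted p = 0.996).

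OPS, BRX and CVP2 favour entry into differentiation. OPS (AT3G09070, chromosome 3, 2768641 to 2771375, minus strand), a membrane-associated protein polarised in sieve element precursors, was at 10.64, 10.06 and 10.96 CPM in scl28-3 and at 8.38, 10.48 and 8.07 CPM in wild type. Wild-type library 2 lay inside the scl28-3 range, and the other wild-type libraries were below it. The log2 fold change was 0.21 ± 0.13 (SE), with a fold interval of 0.939 to 1.43 (limma unadjusted p = 0.149, adjusted p = 0.992). BRX (AT1G31880, chromosome 1, 11445490 to 11450232, plus strand), a plasma membrane regulator of auxin efflux, was at 1.29, 1.2 and 1.85 CPM in scl28-3 and at 1.3, 1.25 and 1.58 CPM in wild type. In both genotypes library 3 was the highest, and the log2 fold change was 0.03 ± 0.21 (SE). CVP2 (AT1G05470, chromosome 1, 1607202 to 1611840, minus strand), the phosphoinositide 5-phosphatase, was at 7.64, 5.49 and 8.64 CPM in scl28-3 and at 6.83, 6.25 and 7.9 CPM in wild type. The scl28-3 libraries held both extremes, and the log2 fold change was 0.02 ± 0.17 (SE), with a fold interval of 0.775 to 1.32.

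APL heads the late group. APL (AT1G79430, chromosome 1, 29877228 to 29879279, minus strand), a MYB-type factor required for phloem identity, was at 7.79, 6.76 and 9.24 CPM in scl28-3 and at 4.49, 7.69 and 5.26 CPM in wild type. All scl28-3 libraries were above wild-type libraries 1 and 3, but wild-type library 2 lay within their range. It averaged 7.93 ± 1.25 CPM in scl28-3 and 5.81 ± 1.67 CPM in wild type (SD, n = 3 each), and the log2 difference was 0.42 ± 0.20 (SE). Its 95% interval of the fold ran from 0.981 to 1.83, with a limma unadjusted p = 0.0629 and adjusted p = 0.992. The size of this difference exceeded that of 96% of tested genes. It was 0.63 without wild-type library 2 and 0.27 without wild-type library 1, the library with the fewest APL reads (52). With the endodermis level, itself higher on average in scl28-3, as a covariate it was also 0.27.

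NAC45 and NAC86, paralogous NAC factors that act redundantly below APL, were near the lower end of the measured range. NAC45 (AT3G03200, chromosome 3, 734892 to 738629, minus strand) was at 1.43, 1.06 and 0.95 CPM in scl28-3 and at 1.38, 0.87 and 1.05 CPM in wild type. NAC86 (AT5G17260, chromosome 5, 5675184 to 5678175, minus strand) was at 2, 1.48 and 1.31 CPM in scl28-3 and at 1.38, 1.25 and 1.58 CPM in wild type. For both genes scl28-3 library 1 was the highest of the 6 libraries and wild-type library 2 the lowest. The log2 fold changes were 0.03 ± 0.23 (SE) for NAC45 and 0.12 ± 0.21 (SE) for NAC86, with fold intervals of 0.711 to 1.47 and 0.781 to 1.5. NAC45 rested on 9 to 20 reads per library and NAC86 on 13 to 28. In TAIR10.1 NAC45 shares 934 exon bases with GSTF11 (AT3G03190) on the opposite strand, which has no values here. Whether counting used the strand is not given in the sources used here, and the origin of reads there is uncertain.

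NEN4 (AT4G39810, chromosome 4, 18474481 to 18475804, minus strand), a nuclease that acts as the sieve element loses its nucleus, was the lowest of the 10 genes in CPM. It was at 0.79, 0.7 and 0.77 CPM in scl28-3 and at 0.52, 1.25 and 1.14 CPM in wild type. The 3 scl28-3 libraries lay between wild-type library 1 and the other two wild-type libraries. These values rest on 10 to 13 reads per scl28-3 library and on 6 to 13 per wild-type library. The exact Poisson 95% interval of wild-type library 1 alone was 0.191 to 1.13 CPM, which takes in every scl28-3 value and covers counting error only. The log2 fold change was -0.20 ± 0.27 (SE; limma adjusted p = 0.992), with a fold interval of 0.572 to 1.32. It was -0.45 without wild-type library 1 and -0.05 without wild-type library 2. Differences within that interval were not excluded at this depth, and the interval is not a limit of detection.

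SUC2 (AT1G22710, chromosome 1, 8030587 to 8033156, minus strand), the sucrose carrier of companion cells, varied most between libraries. It was at 1.29, 1.13 and 2.03 CPM in scl28-3 and at 0.86, 2.02 and 2.54 CPM in wild type. Wild type held the lowest and the highest of the 6 libraries, which differed 2.95-fold, on 10 and 29 reads. The log2 fold change was -0.18 ± 0.31 (SE; limma adjusted p = 0.996), with a fold interval of 0.541 to 1.44. Relative to the mean of all 6 libraries, the SUC2 log2 level was -0.21, -0.33 and 0.27 in scl28-3 and -0.59, 0.31 and 0.55 in wild type. The mean log2 level of the 9 endodermis genes was 0.03, 0.06 and 0.56 in scl28-3 and -0.85, -0.07 and 0.28 in wild type. Within each genotype library 3 was the highest for both, and wild-type library 1 was the lowest of all 6 for both. With the endodermis level as a covariate the SUC2 difference was -0.63, with an unadjusted p under 0.05 and a limma adjusted p = 0.323. The endodermis level was itself higher on average in scl28-3, so covariate and genotype are not separate in that fit. The SUC2 difference was -0.52 without wild-type library 1, and 0.05 without wild-type library 3.

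**Figure D2:**
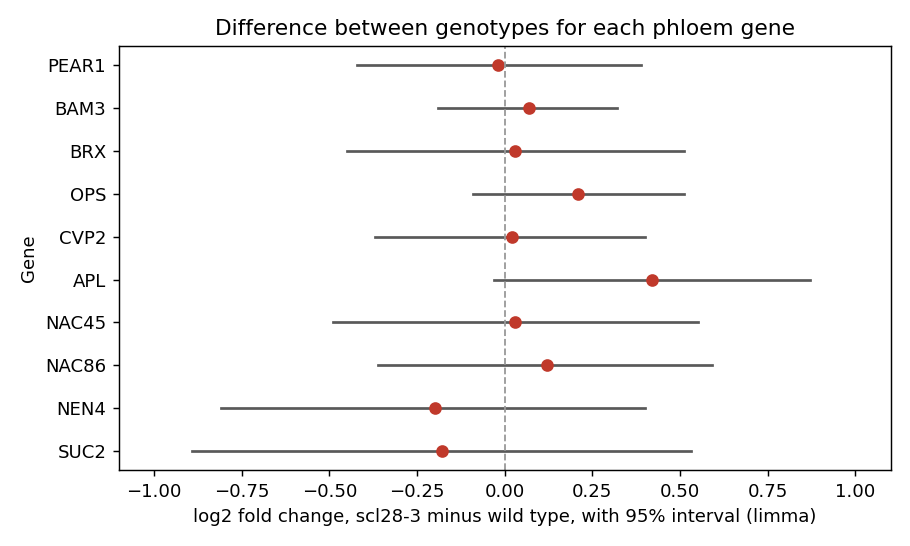
log2 fold change of each phloem gene, scl28-3 minus wild type, on the log2(CPM + 0.5) scale, with its limma 95% interval (n = 3 libraries each). All 10 intervals take in 0, and that of APL reaches from -0.03 to 0.87.

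Early and late genes were set against each other within each library. The mean log2(CPM + 0.5) of the 5 early genes was 2.68, 2.54 and 2.75 in scl28-3 and 2.59, 2.63 and 2.58 in wild type. That of the 4 late genes was 1.41, 1.19 and 1.24 in scl28-3 and 1.05, 1.30 and 1.22 in wild type. The late mean of wild-type library 1 was the lowest of the 6. The late mean minus the early mean was -1.27, -1.35 and -1.52 in scl28-3 and -1.53, -1.33 and -1.36 in wild type, so the genotypes overlapped. These differences averaged -1.38 ± 0.13 in scl28-3 and -1.41 ± 0.11 in wild type (SD, n = 3 each). The gap between genotypes, 0.03, was smaller than the pooled SD of 0.12, and no test was run on it because it is a score over chosen genes. It averages late genes of opposite direction, with APL at a log2 fold change of 0.42 and NEN4 at -0.20. The gap was -0.08 without APL and 0.13 without NEN4. Since CPM is not corrected for gene length, the score compares libraries and not the abundance of early and late transcripts.

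**Figure D3:**
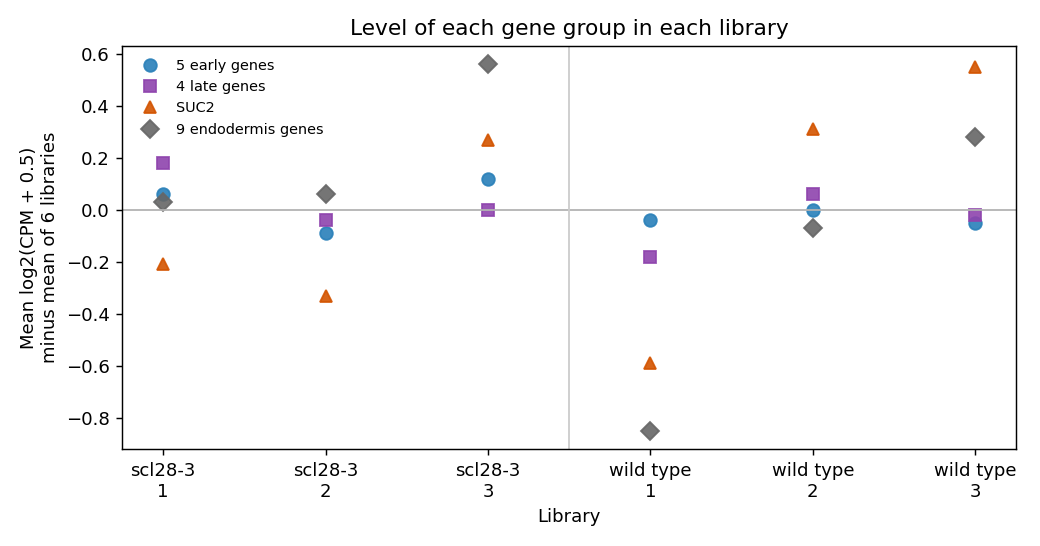
Mean log2(CPM + 0.5) of the 5 early genes, the 4 late genes, SUC2 and 9 endodermis genes in each library, minus the mean of all 6 libraries. The early and late groups stay between -0.18 and 0.18, while SUC2 runs from -0.59 to 0.55 and the endodermis genes from -0.85 to 0.56.

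Levels between genes were compared as CPM per kb of exon, from the exon lengths of TAIR10.1. In scl28-3 the order was BAM3 at 6.19 ± 0.528, APL at 4.94 ± 0.777, OPS at 3.86 ± 0.167, CVP2 at 2.03 ± 0.451 and PEAR1 at 1.63 ± 0.148 CPM per kb (SD, n = 3). Below them stood BRX at 0.875 ± 0.213, NAC86 at 0.871 ± 0.196, NEN4 at 0.781 ± 0.049, SUC2 at 0.724 ± 0.234 and NAC45 at 0.411 ± 0.0901 CPM per kb. BAM3 and APL overlapped in scl28-3, as did CVP2 and PEAR1, and as did the neighbours from BRX down to SUC2. In wild type the same 5 genes led in the same order, with BAM3 at 5.83 ± 0.573, APL at 3.62 ± 1.04, OPS at 3.28 ± 0.479, CVP2 at 1.96 ± 0.235 and PEAR1 at 1.64 ± 0.242 CPM per kb. NEN4 followed at 1.01 ± 0.408, then SUC2 at 0.882 ± 0.42, BRX at 0.833 ± 0.108, NAC86 at 0.766 ± 0.0907 and NAC45 at 0.394 ± 0.0927 CPM per kb. There BAM3 stood clear of APL, while APL and OPS overlapped, CVP2 and PEAR1 overlapped, and NEN4, SUC2, BRX and NAC86 overlapped as neighbours. APL, a late gene, thus stood among the early genes in level, and BRX, an early gene, among the late ones. All 10 genes were below the median of 7.05 CPM per kb over the 21020 genes with an exon length.

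**Figure D4:**
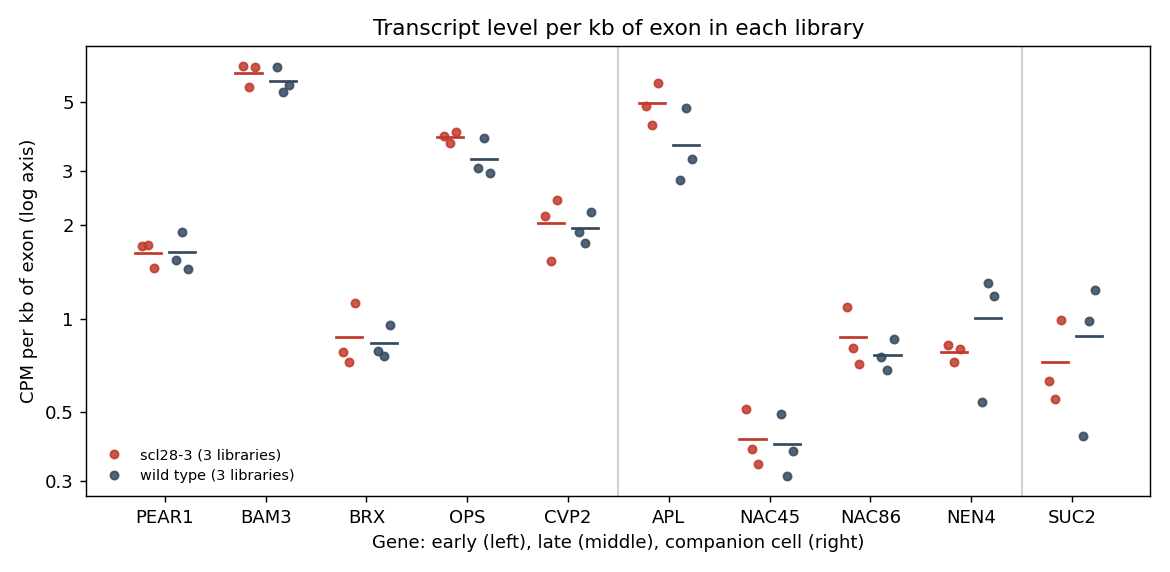
CPM per kb of exon (log axis) of each phloem gene in the scl28-3 libraries (red, left) and wild-type libraries (dark blue, right). Points are libraries and bars are means. BAM3, APL and OPS lie highest in both genotypes and NAC45 lowest.

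Of the NAC pair, NAC86 had more transcript per kb of full exon length than NAC45 in every library, though wild-type library 1 held 16 reads of each. The ratio of NAC86 to NAC45 was 2.13, 2.13 and 2.1 in scl28-3 and 1.52, 2.19 and 2.29 in wild type. It depends on the length given to NAC45. As a second length, all NAC45 reads, including any from the overlap, were divided by the 1857 exon bases outside GSTF11. NAC45 was then at 0.617 ± 0.135 CPM per kb in scl28-3 and 0.592 ± 0.139 in wild type. The ratio averaged 1.41 ± 0.0109 and 1.33 ± 0.278 (SD, n = 3 each). These ratios rest on 9 to 28 reads per gene and library.

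The spread between libraries was set beside counting error. Expressed as a coefficient of variation over 3 libraries, NEN4 varied by 6.27% in scl28-3 and 40.6% in wild type, where counting alone gives about 29.9% and 32.7%. SUC2 varied by 32.4% and 47.6%, against 22.2% and 24.6% from counting, and APL by 15.7% and 28.7%, against 9.32% and 12.7%. The observed variation was above the counting value for 6 of 10 genes in scl28-3 and for 6 of 10 in wild type. BAM3, CVP2, APL and SUC2 exceeded it in both genotypes, CVP2 in wild type only narrowly, at 12% against 11.4%. The same share was not worked out over all tested genes, so these counts show nothing particular to the phloem genes.

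Other genes of early phloem specification were given by a list of 22, of which 21 were tested. Limma and edgeR called 0 of the 21, and 2 had an unadjusted p under 0.05 in each test. The median log2 fold change was 0.03, with 13 higher and 8 lower. The members with the highest CPM were BRXL2 and BRXL3, homologues of BRX, TMO6, a Dof factor, and RPK2, a receptor kinase. BRXL2 was at 29.5 ± 2.7 CPM in scl28-3 and 29.6 ± 1.29 CPM in wild type, and TMO6 at 16.9 ± 0.793 and 15.3 ± 1.41 CPM (SD, n = 3 each).

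MAKR5 and CVL1 were singled out after their values were seen. MAKR5, which amplifies the CLE45 signal perceived by BAM3, was at 2.21, 1.2 and 1.79 CPM in scl28-3 and at 3.8, 2.4 and 3.07 CPM in wild type. The genotypes did not overlap, though the nearest libraries, 2.21 and 2.4 CPM, were close. Its log2 fold change was -0.71 ± 0.23 (SE; limma unadjusted p = 0.0127, adjusted p = 0.992), so it did not pass. CVL1, a homologue of CVP2 with overlapping function, was at 6.86, 5.63 and 6.38 CPM in scl28-3 and at 5.53, 4.13 and 4.48 CPM in wild type, again without overlap. Its log2 fold change was 0.37 ± 0.15 (SE; limma unadjusted p = 0.0389, adjusted p = 0.992). Across all tested genes 10.4% had no overlap, so 2 of 21 is near the background share. CLE45, the ligand of BAM3, was at 1.14, 0.35 and 1.01 CPM in scl28-3 and at 1.47, 0.48 and 0.44 CPM in wild type, with a log2 fold change of 0.06 ± 0.37 (SE).

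Other sieve element genes gave 0 called of 10 with limma and with edgeR, and 0 at an unadjusted p under 0.05 in either. The median log2 fold change was 0.06, with 6 higher and 4 lower. CALS7, the callose synthase of sieve plates, was at 8.41 ± 0.952 CPM in scl28-3 and 7.53 ± 1.66 CPM in wild type. NEN1 and NEN2, relatives of NEN4, were at 5.92 ± 0.734 and 7.38 ± 0.516 CPM in scl28-3 and at 6.6 ± 1.05 and 6.68 ± 1.4 CPM in wild type. CHER1, a choline transporter-like protein of sieve plates, was at 28.4 ± 2.12 and 26.8 ± 2.98 CPM. SEOR1, a structural protein of the sieve element lumen, was named after its values were seen, at 2.29, 2.32 and 3.87 CPM in scl28-3 and 0.86, 1.54 and 2.9 CPM in wild type. Its log2 fold change was 0.61 ± 0.32 (SE; limma adjusted p = 0.992), and wild-type library 3 lay within the scl28-3 range. The difference was 0.29 if wild-type library 1 was left out, 0.94 if wild-type library 3 was, and 0.12 with the endodermis level as a covariate.

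Companion cell genes other than SUC2 were mostly low. Of 11 listed, 8 had values and 4 were tested, and neither limma nor edgeR called any (0 of 4, with 0 at an unadjusted p under 0.05). AHA3, a proton pump of companion cells, was at 11.8 ± 2.46 CPM in scl28-3 and 10.7 ± 0.401 CPM in wild type, FTIP1, which helps export the flowering signal FT, at 9.14 ± 2.05 and 6.92 ± 0.95 CPM, and NaKR1, a metal-binding protein of phloem, at 3.07 ± 0.338 and 3.22 ± 1.05 CPM. The sugar exporters SWEET11 and SWEET12 were at most 0.6 CPM in scl28-3 and 0.44 CPM in wild type. SWEET11 was at 0 in scl28-3 library 2, and SWEET12 in scl28-3 library 1 and wild-type libraries 1 and 2. The mean log2 level of the 8 genes was -0.06, -0.21 and 0.32 in scl28-3 and -0.30, -0.10 and 0.35 in wild type. By this mean library 3 was the highest in each genotype, as for SUC2, but genes too low to be tested count in it equally. Of the 4 tested genes, NaKR1 was highest in library 3 of both genotypes, while AHA3, FTIP1 and SAPL were not.

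Neighbouring vascular tissues were measured beside the phloem genes. The 10 xylem genes summed to 101 to 128 CPM in scl28-3 and 81.4 to 113 CPM in wild type, and the 8 procambium genes with values to 134 to 153 CPM and 123 to 156 CPM. Limma and edgeR called 0 of the 9 tested xylem genes and 0 of the 7 tested procambium genes, with 0 at an unadjusted p under 0.05 in either list and test. VND6, a regulator of metaxylem vessels, was at 0.15 ± 0.131 CPM in scl28-3 and 0.0333 ± 0.0577 CPM in wild type, and was too low to be tested, as was ANT of the procambium list. Endodermis genes had higher means in scl28-3 for 9 of 9, with a median log2 fold change of 0.43, 0 called by either test and 2 at an unadjusted p under 0.05 in each. Leaving out wild-type library 1 gave a median of 0.07, with 7 of 9 higher. Leaving out wild-type library 3 gave 0.72, and leaving out scl28-3 library 3 gave 0.26. Root hair genes had higher means in scl28-3 for 8 of 8, with a median of 0.33, 0 called, and 1 at an unadjusted p under 0.05 with limma and 2 with edgeR. Their median was 0.20 when either wild-type library 1 or scl28-3 library 3 was left out, and 0.47 when wild-type library 3 was. The root hair count at an unadjusted p under 0.05 was 5 without wild-type library 3 and with the block. It was 0 without scl28-3 library 3 or wild-type library 2, and 1 without wild-type library 1. Of the 9 tested xylem genes, 8 had higher means, with a median of 0.08. Without wild-type library 1 it was 3 of 9 and a median of -0.07, and without wild-type library 3 the median was 0.16. The counts from all 6 libraries without a block stand beside 9288 of 17879 tested genes with a higher mean and 4.41% at an unadjusted p under 0.05 with limma. These shares over all genes are not given for the other fits. Limma and edgeR also called 0 of 3 root cap genes, 0 of 4 dividing-cell genes and 0 of 2 tested green tissue genes. The 3 green tissue genes summed to 10 to 17.8 CPM in scl28-3 and 9.68 to 17.2 CPM in wild type. The part of tissue makeup in the phloem values was not tested.

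Genes with library profiles most like those of the phloem groups were looked up among 14032 tested genes of at least 5 CPM, over 6 libraries, as a description. AT2G41730, annotated as a calcium-binding site protein, came nearest to the mean profile of the 4 late genes, with Pearson's r = 0.975. AT1G56145 (0.967), AT4G25835 (0.960), AT3G56030 (0.957) and PAI3 (0.956), whose reads may be shared with near-identical PAI copies, followed. For the 5 early genes the nearest were AT1G15060 (0.980), AT2G45620 (0.976), MGT3 (0.974), the companion cell pump AHA3 (0.973) and ATN1 (0.965). These profiles were taken from the same libraries as the members, and no test was run on them. The members of a group did not share a profile closely, since r of each late gene with the mean of the other late genes was between -0.27 and 0.45, and of each early gene between -0.54 and 0.29.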

How the data were processed

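The values deposited by the authors are CPM, reads per gene scaled to a fixed library total of 1000000, per the file headers, in 1 table for each of 6 libraries. The tools named per the submitters' processing notes are HISAT2 (2.0.0), HTSeq (0.6.1p1) and edgeR, with TAIR10 as the build. Annotation release and strand setting are not given in the sources used here. Low CPM values are whole multiples of the value of 1 read, and dividing by it gave whole reads for 100% of values within 0.1 read.

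Genes were kept by filterByExpr (minimum count 10) on these reads, which left 17879, and all 10 phloem genes passed. CPM were divided by TMM factors and tested as log2(CPM + 0.5) with limma 3.58.1 with an intensity trend (R 4.3.3), scl28-3 minus wild type, two-sided, with Benjamini-Hochberg adjustment over all tested genes. Fold changes are on that scale, which understates the change of low genes. CPM per library and SDs are as deposited, before TMM. The steps were tested on simulated data. edgeR 4.0.16 and DESeq2 1.42.0 were run on recovered reads as alternatives (quasi-likelihood calls: 14 genes, against 13 with limma), and scipy 1.17.1 gave the Poisson intervals.

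Sequences, exon lengths and positions come from RefSeq's TAIR10.1 (21020 of 21125 IDs matched). It holds no name PEAR1, PEAR2, OPL2, PAX, SAPL or SGN3 for the loci used, and gives SCL28 to another locus, so these were taken by gene ID. The members and lists were chosen with earlier results of these data known. Text names the 10 members, SCL28, up to 4 genes per list with the highest CPM and the nearest profiles. MAKR5, CVL1 and SEOR1, named after their values were seen, are marked so. VND6, ANT, SWEET11, SWEET12 and CLE45 are also named and fall outside this rule.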

Additional observations from a re-analysis of the deposited data

How the results depend on the processing

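No phloem gene was called in either direction under any of 18 alternatives. NEN4 has no value where genes had to reach 1 CPM in 3 libraries. SCL28 was called and lower under all 18, at log2 fold changes between -1.58 and -1.38 and adjusted p of at most 0.0287. BAM3 (0.02 to 0.15), OPS (0.13 to 0.33), APL (0.27 to 0.63) and NEN4 (-0.45 to -0.05) kept their direction under each alternative run for them, as did MAKR5 (-0.87 to -0.46), CVL1 (0.29 to 0.48) and SEOR1 (0.12 to 0.94). The alternatives for these 3 genes, CLE45 and the medians and counts of gene lists were added after seeing the data. The late minus early gap moved between -0.08 and 0.13, by less than 1 SD under each of 20 alternatives.

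The direction turned under some alternatives for PEAR1, BRX, CVP2, NAC45, NAC86, SUC2 and CLE45, none of them called. With the endodermis level as a covariate, the log2 fold change was 0.03 for PEAR1, -0.09 for BRX and -0.08 for CVP2. When a library was left out it ran from -0.09 to 0.09 for PEAR1, -0.10 to 0.11 for BRX, -0.10 to 0.18 for CVP2, -0.09 to 0.16 for NAC45, -0.02 to 0.23 for NAC86, -0.52 to 0.05 for SUC2 and -0.14 to 0.41 for CLE45. The cause was not tested. Over all genes, 13 were called lower and 0 higher, and this was 5 to 18 lower and 0 higher when a library was left out, and 24 lower and 1 higher with the endodermis covariate.

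In a fit with a replicate block on the sample number, calls came to 39 lower and 24 higher genes, and APL had an unadjusted p under 0.05 and was not called, the lowest adjusted p of a phloem gene being 0.418. APL also had an unadjusted p under 0.05 with limma-voom and without wild-type library 2 or scl28-3 library 2. OPS had one without wild-type library 2, and was not called. The share of all tested genes with an unadjusted p under 0.05 is given here for the main limma fit only, not for these alternatives. A pairing of samples by number was not established. Deviations of same-numbered libraries from their genotype means correlated at 0.441, 0.0435 and 0.498. Library 1 of one genotype and library 3 of the other correlated at -0.453 and -0.456. Deviations within a genotype cancel out for each gene, so these values are not independent of the same-numbered ones. Deviations of wild-type library 2 correlated near 0 with scl28-3 library 2 (0.0435) as with scl28-3 library 3 (0.0653). Genes under about 20 reads per library limit what can be seen at this depth.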
